A study of Mus musculus with 2208 samples.

Results

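Among hippocampal microglia of CK mice, the control littermates that do not carry the inducible p25 transgene, 141 of 1000 analysed cells held both Ccl3 and Ccl4 mRNA at 10 FPKM (fragments per kilobase of transcript, scaled to the mapped fragments of the library) or more. These cells are called positive. The 602 cells with both genes under 1 FPKM are called negative, and the other 257 cells are called intermediate. A cell was analysed when 1000 or more genes reached 1 FPKM, and the first well of each mouse was left out, which left 1000 of the 1056 CK wells, and 2003 of the 2208 wells of the whole series. The cells were chosen by their measured Ccl3 and Ccl4 levels, so these levels describe the groups and carry no test between them. The FPKM limits were the same at every week and in both genotypes, across which the share of positive cells per mouse was compared. Every other gene was compared within mice, between the positive and the negative cells of the same mouse, in the 11 of 12 CK mice that had 3 or more positive cells. Those mice gave 139 positive and 536 negative cells.

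The study followed microglia during neurodegeneration in CK-p25 mice, where p25, a cleavage product of p35 that overactivates Cdk5, can be induced. As background, this line expresses p25 in forebrain neurons and not in microglia. Microglia with CD11b and CD45 on their surface were sorted one by one from enzymatically digested hippocampus into plates (2208 wells in the table, while the series' design text counts 2183 libraries), and full-length cDNA was made with a modified Smart-seq2 protocol. The CKp25 groups held 3 mice before induction, 3 mice at 1 week, 3 mice at 2 weeks and 4 mice at 6 weeks of induction, and the CK groups held 3 mice at each of the same times. Both genotypes were 3 months old at week 0, 3 months and 1 week old at week 1, 3 months and 2 weeks old at week 2, and 4 months and 2 weeks old at week 6. The labels give CK as the strain of the controls and name no further allele. Since the CK mice have no p25 to induce, their times mark age and the calendar of the experiment. Whether the CK mice also underwent the inducing treatment is not given in the labels, so its part in differences between their times cannot be told apart.

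Ccl3 and Ccl4, also known as MIP-1 alpha and MIP-1 beta, are secreted CC chemokines that draw leukocytes through G protein-coupled receptors on their surface. In microglia and macrophages both genes are transcribed within a short time of a stimulus, under NF-kappaB and AP-1 factors, and their mRNAs are short-lived. AP-1 is a dimer of Fos and Jun family proteins, whose own genes belong to the immediate early genes, the first genes to be transcribed after a signal. Enzymatic dissociation of brain tissue is itself a known inducer of immediate early genes and of chemokines in microglia.

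The positive cells were spread over all CK mice. They made up 7.30% ± 4.34 of the cells at week 0, 15.8% ± 4.81 at week 1, 15.6% ± 10.5 at week 2 and 18.2% ± 5.98 at week 6 (mean ± SD over mice, n = 3 each). Single mice ranged over 2.30% to 27.4%, with a median of 11.9%. The 3 mice of week 0 (up to 10.1%) lay below all mice of week 1 (from 10.9%) and week 6 (from 11.6%) and overlapped with those of week 2, and the later times overlapped with each other. The test between the 4 times did not pass (p = 0.302, two-sided exact permutation test of the between-time sum of squares, 369600 arrangements). In CKp25 mice the same gate held 15.3% ± 10.9 of the cells, against 7.30% ± 4.34 in CK mice, at week 0. At week 1 it held 48.4% ± 11.2 in CKp25 mice and 15.8% ± 4.81 in CK mice, and at week 2 it held 69.8% ± 3.83 in CKp25 mice and 15.6% ± 10.5 in CK mice. At week 6 it held 50.4% ± 5.75 in CKp25 mice (n = 4) and 18.2% ± 5.98 in CK mice (n = 3). The genotypes overlapped at week 0 and did not overlap at weeks 1, 2 and 6, and the two-sided exact permutation p was 0.4, 0.1, 0.1 and 0.0286 in the order of the weeks (n = 3 mice each, 4 in CKp25 at week 6), where 0.1 is the smallest value that 3 mice against 3 allow.

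**Figure D1:**
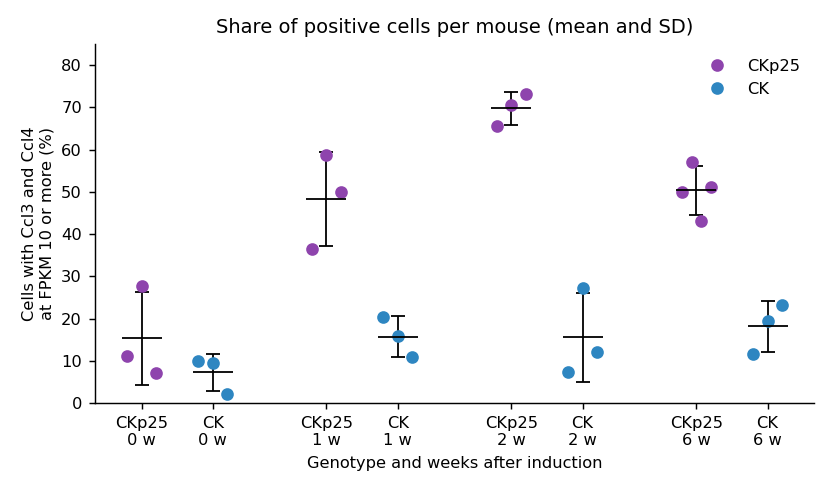
Percentage of analysed cells with Ccl3 and Ccl4 at 10 FPKM or more (vertical axis) in each mouse (points) by genotype and week (horizontal axis); bars give the mean and SD over mice. The CK mice lie between 2.30% and 27.4%, and the CKp25 mice after induction lie above them at each time.

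Within the gate, both chemokines were at high levels and varied widely. The Ccl3 median over the 141 positive cells was 742 FPKM, with a range of 12 to 6832 FPKM, and the Ccl4 median was 769 FPKM, with a range of 18.5 to 10431 FPKM. The medians of single mice ran from 327 to 1737 FPKM for Ccl3 and from 454 to 2326 FPKM for Ccl4. The 3 positive cells nearest to the threshold had 12, 18.5 and 19.2 FPKM for the lower of the 2 genes, and the 3 intermediate cells nearest to it had 7.03, 6.62 and 5.47 FPKM. All 602 negative cells were listed at 0 for both genes, and no positive cell lay below 12 FPKM for either gene. Across the 141 positive cells the Spearman correlation of the 2 levels was 0.35, as a description of cells that share mice and libraries. Of the intermediate cells, 103 held Ccl3 alone and 148 held Ccl4 alone. Both genes were detected together in more cells than the product of their separate shares in 12 of 12 CK mice, with a median of 11.9% of cells over mice, against 5.85% for the product.

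The cells on both sides of the comparison were microglia by their markers. All 139 positive and all 536 negative cells had 3 or more of 8 microglia markers at 1 FPKM or more. Border-associated macrophage markers reached 3 or more of 8 in 2 positive and 10 negative cells, and oligodendrocyte markers reached 3 or more of 6 in 5 positive and 8 negative cells. No positive and no negative cell had 3 or more markers of monocytes, neutrophils, T or NK cells, B cells, dendritic cells or mast cells. Of the markers in the table, 6 of 7 neutrophil genes (S100a8 and S100a9 among them), 4 of 7 monocyte genes (Ly6c2 among them) and 5 of 7 T or NK cell genes (Cd3e among them) were not detected in any positive cell. Other members of these lists were, with means over mice of 53.6% of positive and 57.8% of negative cells for the neutrophil list's Cxcr2, 6.04% of positive and 6.84% of negative cells for the monocyte list's Ccr2, and 2.92% of positive and 6.84% of negative cells for the T cell list's Cd3d. Positive cells held more genes than negative cells. The median number of genes per cell was 2401 ± 311 in positive and 2256 ± 355 in negative cells (mean ± SD of the medians of 11 mice), a difference of 145 that had the same sign in 8 of 11 mice (p = 0.0225, two-sided exact sign-flip permutation test). The summed FPKM (p = 0.0957) and the share of the ribosomal RNA precursor Rn45s (p = 0.640, same exact permutation test, n = 11 mice) did not pass. The difference in genes per cell moves with the chemokine state, so values from negative cells matched on genes per cell are given beside the called genes and the main gene lists.

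Immediate early genes made up 9 of the 19 genes that marked chemokine-producing cells without p25. Of 7124 genes tested with limma, 19 were higher in positive cells at a Benjamini-Hochberg adjusted p under 0.05 and 0 were lower, which is 0.267% of the genes tested, and 635 genes had an unadjusted p under 0.05. These p-values measure the spread between mice. A difference above 0 in all 11 mice was found for 17 genes (0.239%), of which 7 are among the 19, and a difference below 0 in all 11 for 1 gene (0.014%). Among the 19 were 9 of the 26 tested members of the immediate early and dissociation response list, namely Fos, Jun, Junb, Egr1, Atf3, Ier3, Dusp1, Btg2 and Zfp36. The median difference of all genes tested was 0.11 on the log2(FPKM + 1) scale, and the immediate early list had a median of 0.84, with 25 of its 26 tested members on the positive side, where 67.7% of all genes tested lay. Against matched negative cells the list's median was 0.73, with 24 of 26 above 0, beside 0.03 and 54.7% for all genes. With negative cells matched on genes per cell, 3 of 7253 genes were higher (Atf3, Dusp1 and Junb, 0.0414%) and 2 were lower (Fchsd2 and Alox5ap, 0.0276%, named after their values were seen), 0.0689% in all. With genes per cell as a covariate, 6 were higher and 1 was lower. The count was 4 without the 3 mice of week 6, and 10 to 12 without any of 5 single mice (week 0 mouse 1, week 1 mouse 3, week 2 mouse 3, and week 6 mice 2 and 3).

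Dusp1, the phosphatase that switches off MAP kinases, showed the largest difference of the 19. It was detected at 1 FPKM or more in a lowest share of 22.2%, a median of 81.8% and a highest share of 100% of positive cells over the 11 mice, and in 22.2%, 46.2% and 53.4% of negative cells. The 2 ranges overlapped through week 0 mouse 1, where both shares were 22.2%, and week 1 mouse 1, with 47.1% of positive and 25.7% of negative cells. The mean log2(FPKM + 1) of Dusp1 was higher in positive cells in 10 of 11 mice. The difference in mean log2(FPKM + 1) was 2.62 ± 0.33 (SE, adjusted p = 2.2e-05, limma), and 2.46 ± 0.41 with matched negative cells (adjusted p = 0.0063).

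Of the 9, 5 encode transcription factors. Atf3, a stress-induced factor of the ATF/CREB family, was detected in 20%, 42.9% and 65.4% of positive cells (lowest, median and highest mouse) and in 8.57%, 14.3% and 22.9% of negative cells. Its mean level was 77.8 ± 15.7 FPKM in positive and 26.1 ± 15.3 FPKM in negative cells (SD, n = 11 mice). Atf3 was higher in positive cells in all 11 mice, by 1.84 ± 0.25 (SE, adjusted p = 6.1e-05, limma), and by 1.89 ± 0.30 against matched negative cells (adjusted p = 0.0060). Junb, an AP-1 subunit, was detected in 70.6%, 90.9% and 100% of positive cells and in 31.4%, 77.0% and 87.2% of negative cells. It was higher in all 11 mice, by 2.05 ± 0.25 (SE, adjusted p = 2.2e-05), and by 1.57 ± 0.30 against matched cells (adjusted p = 0.037). Jun, its AP-1 relative, was also higher in all 11 mice. The Jun difference was 1.81 ± 0.24 (SE, adjusted p = 2.7e-05), and 1.35 ± 0.30 against matched cells, where it missed the threshold (adjusted p = 0.11).

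Fos, the AP-1 partner of Jun, was detected in 33.3%, 65.4% and 82.4% of positive cells and in 22.2%, 46.6% and 51.3% of negative cells. It was higher in 10 of 11 mice, by 2.16 ± 0.39 (SE, adjusted p = 0.0047, limma), and by 1.48 ± 0.49 against matched cells, where it missed the threshold (adjusted p = 0.54). Its differences were the most uneven of the group, since they ran from -0.67 in a week 0 mouse to 5.42 in a week 1 mouse. Egr1, a zinc finger factor, was detected in 55.6%, 80.0% and 100% of positive cells and in 19%, 56.7% and 68.8% of negative cells. Its mean log2(FPKM + 1) was higher in 10 of 11 mice, by 1.99 ± 0.34 (SE, adjusted p = 0.0021, limma), and by 1.74 ± 0.38 against matched cells (adjusted p = 0.10). Its mean FPKM was lower in positive cells in week 0 mice 1 and 2, week 1 mice 2 and 3 and week 2 mouse 2. In week 1 mouse 3 it was 76.0 FPKM in positive and 130 FPKM in negative cells. The other mice had higher means in positive cells, as in week 6 mouse 3 with 279 against 179 FPKM. Across mice the levels of all 19 genes overlapped between positive and negative cells, and the separation lay within the mice.

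**Figure D2:**
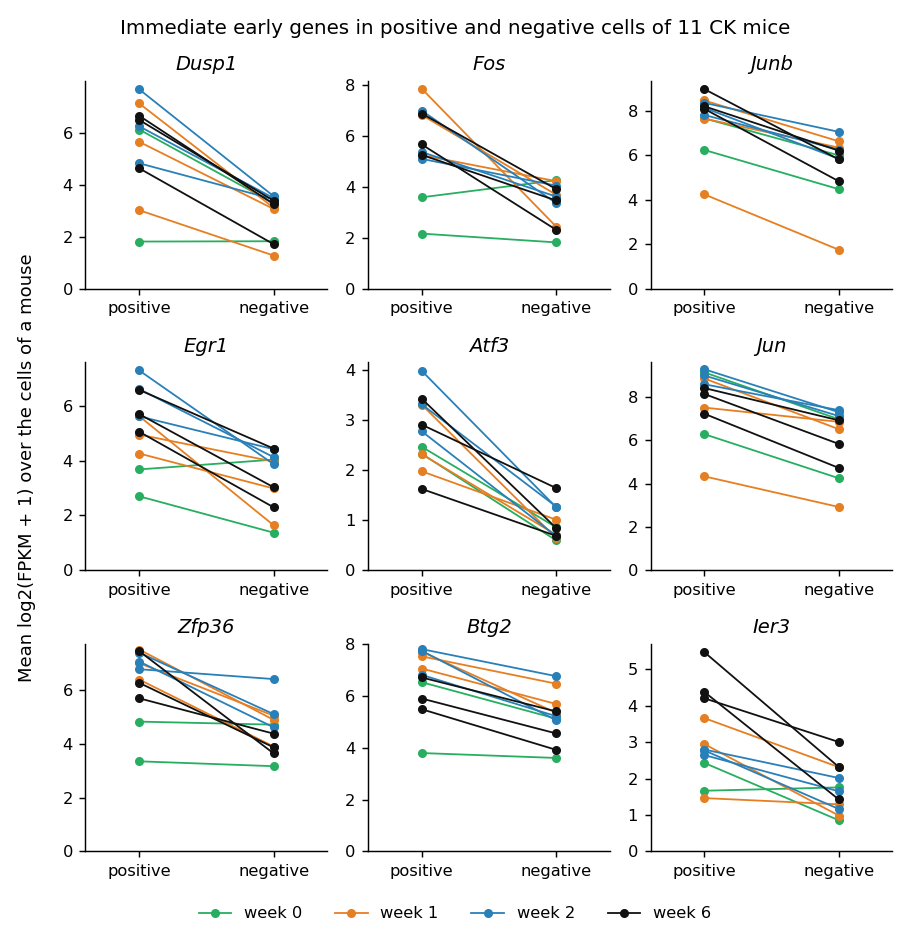
Mean log2(FPKM + 1) (vertical axis, from 0 and scaled per gene) of 9 immediate early genes in the positive and negative cells of each CK mouse; a line joins the 2 values of a mouse and its colour gives the week. The lines for Atf3, Junb, Jun, Zfp36 and Btg2 fall to the right in all 11 mice, and those for Dusp1, Fos, Egr1 and Ier3 in 10 of 11.

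The remaining immediate early genes that passed act on mRNA or on survival. Zfp36, also called tristetraprolin, binds AU-rich elements and speeds the decay of cytokine and chemokine mRNAs. It was detected in 55.6%, 95.2% and 100% of positive cells and in 49.2%, 70.8% and 89.7% of negative cells, with a difference of 1.81 ± 0.32 (SE, adjusted p = 0.0035, limma). Btg2, an antiproliferative protein that recruits the deadenylation complex, was higher by 1.45 ± 0.26 (SE, adjusted p = 0.0047), and Zfp36 and Btg2 were higher in 11 of 11 mice. Ier3, a regulator of survival, was detected in 20%, 40.0% and 66.7% of positive cells and in 12.7%, 22.4% and 41.7% of negative cells, and was higher by 1.42 ± 0.30 (SE, adjusted p = 0.028). With matched negative cells the adjusted p was 0.23 for Zfp36 and 0.36 for both Btg2 and Ier3. Of the 37 members of the list, 11 did not reach the filter, a mean share of 10% of cells over mice and states, and were not tested.

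In single cells, the 9 immediate early genes that passed were often detected together in positive cells. A positive cell had a median of 7 of the 9 at 1 FPKM or more, and a negative cell had a median of 5. Over mice, 61.7% ± 19 of positive cells and 30.3% ± 11.5 of negative cells held 7 or more of them, and 1.54% ± 3.63 of positive cells and 23.6% ± 13.5 of negative cells held 2 or fewer (SD, n = 11). These shares use genes selected in the same cells and are given without a test. The state was not exclusive, because 165 of the 536 negative cells also held 7 or more of the genes without Ccl3 or Ccl4. Across the 139 positive cells, the mean level of the 9 genes had a Spearman correlation of 0.17 with Ccl3, 0.23 with Ccl4 and 0.25 with genes per cell, as a description over cells that share mice, plates and depth.

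**Figure D3:**
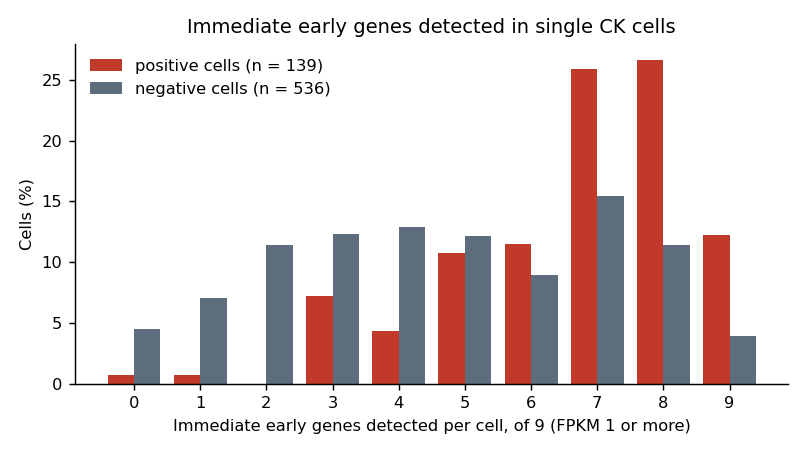
Percentage of cells (vertical axis) by the number of 9 immediate early genes at 1 FPKM or more (horizontal axis, 0 to 9), in 139 positive and 536 negative cells of 11 CK mice. Positive cells are most frequent at 7 and 8 genes, and negative cells spread over the whole range.

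Promoter windows are shown for Ccl3 and, among the called genes with a promoter, for the 3 that hold a cyclic AMP response element (CRE, TGACGTCA). They were picked by this match and do not stand for the other called genes. CRE and AP-1 sites bind factors of the families of Atf3, Fos, Jun and Junb. The windows hold the 250 bases before the annotated start, 5′ to 3′ on the gene's strand, from the RefSeq annotation of GRCm38.p6, which is not the mm9 build of the deposited values. Capitals mark the motifs found on either strand. They were searched as CRE TGACGTCA, AP-1 TGANTCA, and kappaB as GGG, any 3 bases and TTCC, and none of the marked motifs overlap. The Ccl3 window (chr11:83649379-83649628, minus strand) has no match to the 3 motifs. The Dusp1 window (chr17:26508473-26508722, minus strand) and the Btg2 window (chr1:134079156-134079405, minus strand) each have 1 CRE, and 1 of the 3 Nfkbid windows (chr7:30422156-30422405, plus strand) has a CRE and a kappaB match.
Ccl3: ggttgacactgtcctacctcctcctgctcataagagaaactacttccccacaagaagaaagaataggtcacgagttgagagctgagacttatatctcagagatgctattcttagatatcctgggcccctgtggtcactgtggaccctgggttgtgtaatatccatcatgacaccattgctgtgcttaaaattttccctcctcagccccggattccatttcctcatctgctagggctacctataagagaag
Dusp1: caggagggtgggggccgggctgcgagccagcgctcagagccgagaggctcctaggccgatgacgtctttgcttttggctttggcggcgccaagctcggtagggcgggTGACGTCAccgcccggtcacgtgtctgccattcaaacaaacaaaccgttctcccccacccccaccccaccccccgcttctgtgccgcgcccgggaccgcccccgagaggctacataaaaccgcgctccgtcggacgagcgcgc
Btg2: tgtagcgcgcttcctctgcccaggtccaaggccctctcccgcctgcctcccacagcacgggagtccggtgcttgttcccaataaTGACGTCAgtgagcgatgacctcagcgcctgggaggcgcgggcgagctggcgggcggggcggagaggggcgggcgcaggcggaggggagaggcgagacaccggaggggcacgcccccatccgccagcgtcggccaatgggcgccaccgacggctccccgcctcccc
Nfkbid: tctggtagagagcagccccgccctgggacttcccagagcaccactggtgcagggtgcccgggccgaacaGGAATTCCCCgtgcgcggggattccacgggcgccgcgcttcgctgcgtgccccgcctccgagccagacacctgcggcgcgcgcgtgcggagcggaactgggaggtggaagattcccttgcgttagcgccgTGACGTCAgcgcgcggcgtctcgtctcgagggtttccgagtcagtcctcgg
A promoter sequence was at hand for 15 of the 19 genes. A CRE was found in 3 of these 15, an AP-1 match in 2 and a kappaB match in 1, while among the 5491 tested genes with a promoter 3.33% held a CRE, 5.03% an AP-1 match and 6.32% a kappaB match. The AP-1 matches were in Hspa5 and Rpl9, outside the immediate early list. The windows of Atf3, Fos, Jun, Junb, Ier3 and Zfp36 had no match to any of these motifs. A match describes these letters in this window and is not evidence of binding.

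Among NF-kappaB genes, 2 of 23 tested members were higher and 0 were lower, beside 0.267% higher among all genes, and with matched negative cells 0 of 22 were called (4 at an unadjusted p under 0.05, limma). Cd83, a surface glycoprotein of activated antigen-presenting cells and microglia, was detected in 11.1%, 69.2% and 90.9% of positive cells and in 20%, 32.1% and 51.3% of negative cells. Its mean level was 168 ± 145 FPKM in positive and 44.0 ± 19.4 FPKM in negative cells (SD, n = 11 mice), and its difference was 1.92 ± 0.41 (SE, adjusted p = 0.028, limma) in 10 of 11 mice. Nfkbid, an atypical inhibitor of NF-kappaB, was detected in 38.1%, 45.5% and 73.3% of positive cells and in 18.5%, 31.1% and 46.2% of negative cells, with a difference of 1.21 ± 0.27 (SE, adjusted p = 0.043, limma). Nfkbia, the classical feedback inhibitor, had a difference of 1.13 ± 0.39 and did not pass (adjusted p = 0.33). With matched cells the adjusted p was 0.36 for Cd83 and 0.71 for Nfkbid (limma). The list's median was 0.21, against 0.11 for all genes tested, and 0.14 against 0.03 with matched cells.

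Other secreted factors did not pass the threshold in CK mice, where 0.267% of all genes were called higher. Of 24 other chemokines in the table, 6 reached the detection filter, and 0 were called (limma, with 3 at an unadjusted p under 0.05). All 6 had positive differences, as did 67.7% of all genes tested, with a median of 0.60 (0.44 with matched cells). Ccl2, which attracts monocytes, was detected in a median of 23.5% of positive and 12.5% of negative cells over mice, with a difference of 0.68 ± 0.30 (SE, adjusted p = 0.51, limma). Cxcl16, a chemokine that is also made as a membrane-bound form, differed by 0.69 ± 0.25 (adjusted p = 0.36). Of 10 tested cytokines, 0 were called (5 at an unadjusted p under 0.05), with a median difference of 0.39 (0.36 with matched cells). Il1a, the alarmin interleukin 1 alpha, was higher in positive cells in 11 of 11 mice. It was detected in 11.1%, 47.6% and 80.0% of positive cells and in 9.52%, 30.2% and 44.3% of negative cells, with a difference of 1.14 ± 0.31 (SE, adjusted p = 0.14, limma). Csf1, the growth factor of the macrophage lineage, had a median share of 18.2% in positive and 3.77% in negative cells and differed by 0.59 ± 0.16 (adjusted p = 0.14). Tnf, the inflammatory cytokine, had 22.2% in positive and 11.3% in negative cells and differed by 0.68 ± 0.23 (adjusted p = 0.32). Under other settings Csf1 passed with profiles weighted by the number of cells (adjusted p = 0.012, limma) and without week 6 mouse 1 (adjusted p = 0.0095), and Il1a passed with positive cells at 50 FPKM or more (adjusted p = 0.035). Over all settings the adjusted p ran up to 0.54 for Csf1 and 0.70 for Il1a. Il1b, interleukin 1 beta, did not reach the filter, with a mean over mice of 4.83% of positive and 2.66% of negative cells.

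The other called genes belonged to protein synthesis and folding, antigen processing, iron storage and mitochondrial transport. Hspa5, the chaperone BiP of the endoplasmic reticulum, was the 1 called member of 17 tested genes of endoplasmic reticulum stress. It was detected in 81.0%, 100% and 100% of positive cells and in 66.7%, 82.5% and 94.3% of negative cells, and differed by 1.20 ± 0.27 (SE, adjusted p = 0.043, limma). Its list had a median of 0.48 (0.21 with matched cells). Its members Dnajb11, a co-chaperone, and Ddit3, the factor CHOP, had differences of 1.32 ± 0.33 (adjusted p = 0.099) and 0.91 ± 0.25 (adjusted p = 0.14). Without week 0 mouse 1, Dnajb11 passed (1.57, adjusted p = 0.020, limma). Of 33 cytosolic ribosomal protein genes, 2 were called higher, beside 0.267% of all genes. Their differences were above 0 in 33 of 33, beside 67.7% of all genes, with a median of 0.70. With matched negative cells 0 were called (7 at an unadjusted p under 0.05, limma), 31 of 33 were above 0 and the median was 0.48. Rpl23, a protein of the large subunit, differed by 1.23 ± 0.28 (SE, adjusted p = 0.044, limma) and was higher in 10 of 11 mice. Rpl9, a ribosomal protein gene outside that list, differed by 1.54 ± 0.30 (adjusted p = 0.012). Npm1, a nucleolar protein of ribosome assembly, differed by 1.5 ± 0.32 (adjusted p = 0.035), and Slc25a5, the mitochondrial ADP/ATP carrier, by 1.28 ± 0.25 (adjusted p = 0.012). Ftl1, the ferritin light chain, differed by 0.79 ± 0.17 (adjusted p = 0.039), and Ifi30, the lysosomal thiol reductase of antigen processing, by 1.38 ± 0.31 (adjusted p = 0.044, limma). With matched negative cells none of these 7 called genes (Hspa5, Rpl23, Rpl9, Npm1, Slc25a5, Ftl1 and Ifi30) passed (adjusted p of 0.36 to 0.68, limma), and ribosomal protein, Npm1, Slc25a5 and Ftl1 transcripts have near-identical processed copies in the genome among which reads can be split.

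Genes of microglial identity did not pass the test. Of 25 homeostatic microglia genes, all tested, 0 were called in either direction (0 at an unadjusted p under 0.05, limma), and the median difference was -0.06, with 8 of 25 above 0. With matched negative cells 0 were again called, 4 had an unadjusted p under 0.05 (limma), the median was -0.26 and 3 of 25 were above 0, beside 0.03 and 54.7% for all genes. P2ry12, the purinergic receptor of resting microglia, was detected in a median of 100% of positive and 100% of negative cells, with a difference of -0.36 ± 0.18 (SE, adjusted p = 0.58, limma). Among phagocytic and lipid-handling genes, 0 of 18 were called (8 at an unadjusted p under 0.05), and all 18 differences were positive, beside 67.7% of all genes, with a median of 0.43. With matched cells 14 of 17 were positive, with a median of 0.41. Cd63, a tetraspanin of late endosomes, had 1.41 ± 0.35 (adjusted p = 0.093). Heat shock genes (9 tested, median 0.51), glycolysis genes (16 tested, median 0.41), type I interferon genes (10 tested, median 0.21), MHC class I genes (12 tested, median 0.17), MHC class II genes (7 tested, median 0.07), lysosomal genes (24 tested, median 0.25) and cell cycle genes (6 tested, median 0.14) had no called member. With matched cells the medians of these lists were 0.29, 0.37, 0.27, -0.01, -0.05, 0.09 and 0.12 in the same order, again without a called member. C3ar1, the receptor of the complement fragment C3a, had 1.36 ± 0.32 and missed the threshold (adjusted p = 0.062, limma). It passed under 8 of 34 other settings, among them a pseudocount of 0.1, the 20% filter, and the omission of week 1 mouse 1 or week 2 mouse 1, and had an adjusted p of 0.79 with matched cells. Cd63 passed under 4 of 34, among them the omission of week 1 mouse 2 or week 6 mouse 1, and had 0.66 with matched cells.

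**Figure D4:**
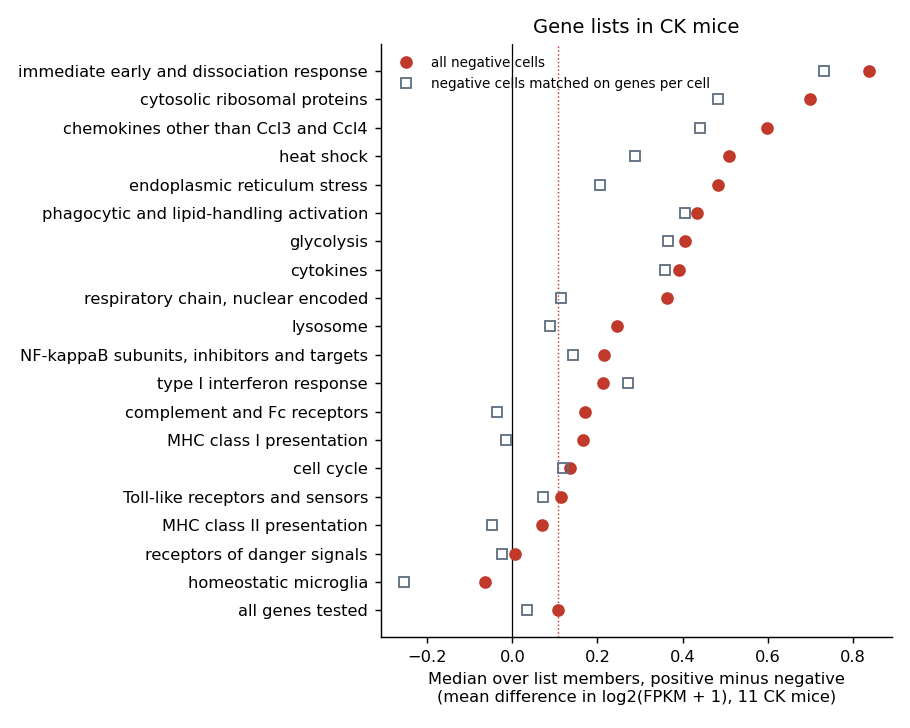
Median over the tested members of each gene list with 2 or more tested members of the difference between positive and negative cells (horizontal axis, mean difference in log2(FPKM + 1) over 11 CK mice), with all negative cells (filled circles) and with negative cells matched on genes per cell (open squares); the dotted line marks the median of all genes tested, 0.11. The immediate early list lies farthest to the right, at 0.84, and the homeostatic list is at -0.06.

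The difference between positive and negative cells was compared between the weeks, since the CK mice were taken at 4 ages. No gene passed (0 of 7124, 357 at an unadjusted p under 0.05, limma F test), with 2 mice at week 0 and 3 at each later time, and single genes can still differ by amounts these numbers of mice cannot show. Junb differed by 1.71 ± 0.07 at week 0, 1.87 ± 0.59 at week 1, 1.71 ± 0.51 at week 2 and 2.80 ± 0.70 at week 6 (mean ± SD over mice). Atf3 differed by 1.67 ± 0.09, 1.75 ± 0.86, 2.28 ± 0.38 and 1.59 ± 0.87 at the same times. Fos differed by -0.16 ± 0.72 at week 0, where its 2 mice had -0.67 and 0.34, and by 3.19 ± 2.2, 2.14 ± 1.34 and 2.70 ± 0.81 at the later times.

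The intermediate cells, of which 103 held Ccl3 alone, 148 held Ccl4 alone and 6 fell between the limits in another way, were set against the same negative cells, which both comparisons share. Of 6972 genes tested, 12 were higher and 0 lower (0.172% called, limma), and 8 of these are members of the immediate early list. Fos differed by 1.94 ± 0.23 (SE, adjusted p = 8.3e-06) and Jun by 1.48 ± 0.22 (adjusted p = 0.00059). Socs3, a feedback inhibitor of cytokine receptors, differed by 1.48 ± 0.26 (adjusted p = 0.0044), and Ppp1r15a, the stress-induced phosphatase subunit GADD34, by 0.98 ± 0.17 (adjusted p = 0.0043). Atf3, which passed in the positive cells, differed by 0.35 ± 0.17 and did not pass (adjusted p = 0.67, limma). Against the same negative cells, cells with Ccl4 alone gave 6 genes that were higher (0.0865% of 6933, namely Fos, Jun, Junb, Egr1, Zfp36 and Ppp1r15a), and cells with Ccl3 alone gave 0 (424 at an unadjusted p under 0.05, limma). The difference between these kinds of cells was not tested.

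CKp25 mice, which the rule did not include, were analysed with the same gate on their own Ccl3 and Ccl4 levels. The genes were those that passed the filter in CK mice, and genes outside that set were not tested. Of 7124 genes, 2097 were higher in their positive cells (29.4%) and 18 were lower (0.253%), 29.7% in all, so a call is common there, and positive cells had more genes per cell in 13 of 13 mice, with a median over mice of 2599.5 genes in positive and 1925 in negative cells. Of the 19 genes called in CK mice, 18 were higher in positive cells of CKp25 mice, and with matched negative cells, where 17.7% of genes were called higher and 0.0702% lower, again 18. The exception in both was Ifi30 (0.39 ± 0.37, SE, adjusted p = 0.41, limma). Matching changed only the 3 mice before induction. In every later CKp25 mouse the positive cells were at least as many as the negative cells, which were all kept. The difference in genes per cell thus remained in those mice. The median difference of the 19 genes was 1.99 in CKp25 mice, against 0.34 for all genes tested there. Atf3 differed by 2.37 ± 0.24 (SE, adjusted p = 2.8e-08, limma), and Fos by 3.05 ± 0.31 (adjusted p = 2.8e-08). In the 3 CKp25 mice taken before induction, Atf3 differed by 2.91, 3.21 and 2.05, Dusp1 by 2.67, 2.78 and 2.18, and Fos by 4.93, 4.04 and 3.33, all in the direction of the mean over CK mice. The 2 CK mice of week 0 ran from 1.61 to 1.73 for Atf3, -0.01 to 2.84 for Dusp1 and -0.67 to 0.34 for Fos. The 3 CKp25 mice before induction alone gave 0 called genes (208 at an unadjusted p under 0.05, limma).

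Secreted factors passed in CKp25 mice, with 4 of 6 other chemokines and 6 of 10 cytokines higher, against 0 of 6 and 0 of 10 in CK mice. Among all genes 29.4% were called higher in CKp25 mice and 0.267% in CK mice. Ccl2 differed by 2.12 ± 0.29 in CKp25 mice (SE, adjusted p = 5.8e-06, limma) and 0.68 ± 0.30 in CK mice, and Tnf by 1.96 ± 0.28 in CKp25 mice (adjusted p = 1.1e-05) and 0.68 ± 0.23 in CK mice. The test of the difference between genotypes did not pass for either (Ccl2, 1.44 ± 0.52, adjusted p = 0.18; Tnf, 1.28 ± 0.47, adjusted p = 0.19, limma), nor for any of the 19 genes. It passed for 3 of 7124 genes (0.0421%), Sept7, Smim7 and Fchsd2. Sept7, a septin of the cytoskeleton, differed by 1.33 ± 0.27 in CKp25 mice, where it was higher in 12 of 13, and by -0.74 ± 0.29 in CK mice, where it was higher in 0 of 11. The genotype difference of Sept7 was 2.08 ± 0.33 (SE, adjusted p = 0.0029, limma). With the 10 CKp25 mice taken after induction alone, 4 genes passed this test (0.0561%), Tap2 among them.

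**Figure D5:**
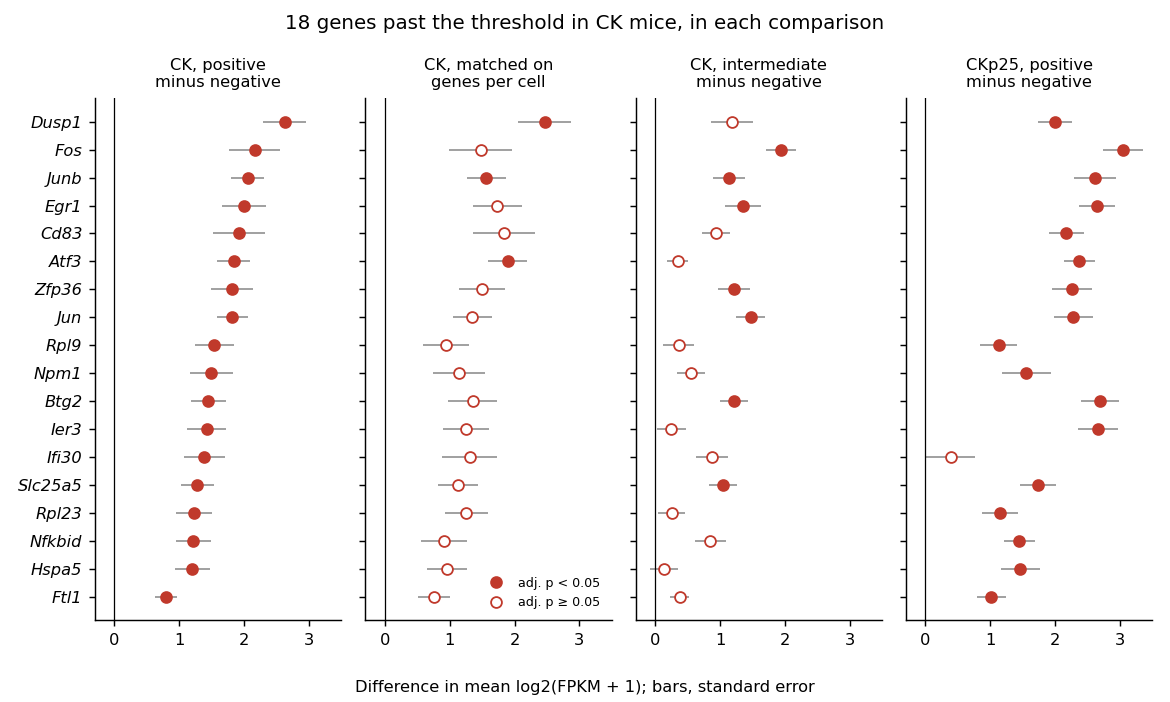
Difference in mean log2(FPKM + 1) (horizontal axis, with SE) for 18 of the 19 genes called in CK mice, in CK positive against negative cells, the same with negative cells matched on genes per cell, CK intermediate against negative cells, and CKp25 positive against negative cells; filled points passed an adjusted p of 0.05. All 18 differences are above 0 in each panel, and Dusp1, Junb and Atf3 are filled in the matched panel.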

How the data were processed

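Single-cell libraries were deposited as 1 table of 23951 genes by 2208 wells from 25 mice, in FPKM. Per the submitters' processing notes, the authors used Cufflinks 2.2 and mm9; no source used here gives the aligner. Per the series' design text, the median depth was 251353 mapped reads per cell; depth per cell is unknown in FPKM, so genes per cell stood in for it. No 2 columns held the same values.

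Cells were averaged per mouse and state as log2(FPKM + 1). The added 1 understates changes among low FPKM values. A difference on this scale also mixes the share of cells with the gene detected and the level in those cells. It is therefore not a fold change of mean FPKM, and can be larger or of the other sign. For Egr1, some mice had a higher mean log2(FPKM + 1) but a lower mean FPKM in positive cells. A gene was tested when its share of cells at 1 FPKM or more, averaged over mice and over positive and negative cells, was 10% or more. Both states weighed the same. Some genes passed through their positive share, among them Csf1 (mean of 17.5% of positive and 5.02% of negative cells) and Lpl (12.9% and 7.26%). Others were Csrnp1 of the immediate early list (13.8% and 7.29%), Ccl5 (14.1% and 9.38%) and Osm (14.6% and 9.02%). The filter favours a positive sign for them. Tlr12 (9.92% and 16.2%) passed through its negative share. Genes of both kinds enter the list counts of positive differences. Genes were fitted with limma 3.58.1 (trend, robust, R 4.3.3), with the mouse as replicate block, since positive and negative cells come from the same animal. P-values were adjusted over all tested genes, without Ccl3 and Ccl4. The fit was tested on simulated data. Wells of a mouse were not replicates. For matching, each positive cell took the unused negative cell of its mouse nearest in genes per cell, until none was left. In every CKp25 mouse after induction the positive cells were at least as many as the negative cells. All negative cells of those mice were therefore kept under matching. Genotypes and weeks were compared on the differences of mice.

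The members, the gene lists and the tests were chosen with earlier results of these data known. Named are, by rule, the 15 largest differences of one sign in every mouse among genes past 0.05, from every gene list the 4 members with the lowest p and all those past 0.05, and up to 5 genes past 0.05 between genotypes. The other called genes, Il1b and the genes of the intermediate cells were named after their values were seen. Alternatives were other thresholds, filters, pseudocounts, scalings and omissions of mice. Results of 2 genes are not reported here.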

Additional observations from a re-analysis of the deposited data

Results flagged for a closer look

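The difference between positive and negative cells depended on genotype for 3 genes when all 13 CKp25 mice were set against the 11 CK mice. The genotype difference was 2.08 for Sept7, 1.64 for Smim7 and 1.45 for Fchsd2 (adjusted p = 0.0029, 0.010 and 0.016, limma). Smim7, a small membrane protein, differed by 1.12 ± 0.21 in CKp25 mice (SE, higher in 13 of 13) and -0.52 ± 0.24 in CK mice (higher in 3 of 11). Fchsd2, an F-BAR protein that promotes actin assembly, differed by 0.34 ± 0.23 in CKp25 mice (higher in 9 of 13) and -1.10 ± 0.27 in CK mice (higher in 1 of 11). Over the other settings the adjusted p ran from 0.00046 to 0.014 for Sept7, from 0.0023 to 0.046 for Smim7 and from 0.0041 to 0.051 for Fchsd2 (limma).

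With the 10 CKp25 mice taken after induction, the genotype difference was 2.16 for Sept7, 1.53 for Smim7, 1.70 for Fchsd2 and 1.81 for Tap2, a peptide transporter subunit of antigen presentation (adjusted p = 0.0032, 0.040, 0.0018 and 0.040, limma). The positive cells of CKp25 mice had more genes than their negative cells in 13 of 13 mice, and the part of this in the genotype differences was not tested. Matching kept all negative cells of the 10 mice after induction, because their positive cells were at least as many. It thinned the negative cells only in CK mice and in CKp25 mice before induction. With this matching, Sept7, Smim7 and Fchsd2 had genotype differences of 2.29, 1.86 and 2.01 (adjusted p = 0.0060, 0.046 and 0.0060, limma).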

How the results depend on the processing

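The number of genes called in CK mice was 19, all higher. It was 5 with matched negative cells (3 higher, 2 lower), 7 with genes per cell as a covariate (6 higher, 1 lower), 6 without the 10% filter, 6 among cells with 1500 or more genes, 9 with the share of cells as the profile, and 186 with the first wells kept (185 higher, 1 lower). It was 11, 6, 8 and 4 without the mice of week 0, 1, 2 and 6, and 10 without cells with 3 or more markers of another type, a setting added after seeing the data. Without the replicate block it was 2 (Atf3 and Dusp1), where positive and negative cells of a mouse are no longer paired. Omitting 1 mouse gave 10 to 19. Genes named as not passing could also gain a call, as Cd63, C3ar1, Csf1, Il1a, Tnf, Cxcl16, Dnajb11 and Ddit3 did with the first wells kept. The first wells, which the rule leaves out, are gene-rich. With them, 8492 genes reached the filter and 2324 had an unadjusted p under 0.05 (limma), against 7124 and 635 without them. The part of these wells in such calls was not tested. Of 612 values of 18 of the 19 genes under other settings, 389 kept the call, 223 lost it and 0 changed sign; Dusp1 and Atf3 passed in 34 of 34 settings, Junb in 33 and Jun in 32, and 9 of the 19 genes passed in every omission of a mouse.

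In CKp25 mice the 2115 called genes became 982 without the replicate block and 1264 with matched cells. Matching there changed only the mice taken before induction. With 1 mouse omitted the count was 1599 to 2374. The 3 genes of the genotype test became 7 with matched cells and 2 to 10 with 1 mouse omitted (5 without CK week 2 mouse 1, CK week 6 mouse 1, CKp25 week 0 mouse 1 or CKp25 week 1 mouse 1, 6 without CKp25 week 1 mouse 2, and 10 without CKp25 week 0 mouse 2). The 12 genes of the intermediate cells became 7 with matched cells, 0 for cells with Ccl3 alone and 6 for cells with Ccl4 alone, the last 2 settings added after seeing the data. The weeks gave 0 genes in every omission, and the share of positive cells had p of 0.101 to 0.642 over weeks with 1 mouse omitted (exact permutation test). The difference in genes per cell was 120 to 169 with 1 mouse omitted, and that of the Rn45s share -0.073 (without week 6 mouse 2) to 0.368 percentage points.

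FPKM without counts give no interval for a single cell. The 5 to 26 positive cells per compared CK mouse and the 7 to 57 negative cells per CKp25 mouse limit the precision of a profile. A gene detected in few cells can differ without being called.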
